A study of Saccharomyces cerevisiae with 6 samples.

Results

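The histone chaperone genes of budding yeast taken here are 10 of the 7554 transcripts measured: ASF1, the CAF-1 genes RLF2, CAC2 and MSI1, the HIR genes HIR1, HIR2, HIR3 and HPC2, and the FACT genes SPT16 and POB3. They were chosen by systematic name from their known roles, and each of the 10 names was found in the table. RNA was sequenced from 3 libraries of strain yMH007, which contains the artificial data-carrying chromosome (dChr), and from 3 libraries of the control strain yMH104, which carries an empty plasmid. Both strains grew at 30 °C in synthetic medium without uracil, were diluted to an optical density of 0.2 and were harvested between 1.0 and 1.2. The labels give no parent genotype, no mating type and no copy number of dChr or plasmid, and each group is a single strain. Nothing in them tells whether replicate libraries are separate cultures or repeats of one, so p-values measure the spread between these libraries. The study asked how foreign DNA is packaged and transcribed in yeast, and the chaperones are among the host proteins that load histones onto DNA.

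Histone chaperones bind free histones and pass them to and from DNA without using ATP themselves. ASF1 binds a dimer of histones H3 and H4 and hands it on, either to CAF-1, which works behind the replication fork, or to the HIR complex, which works apart from replication and also represses most of the core histone genes outside S phase. FACT loosens and rebuilds nucleosomes in front of and behind RNA polymerase II and the replication fork. In yeast SPT16 and POB3 are essential for growth, while ASF1 and the genes of CAF-1 and HIR can each be deleted.

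Values were TPM, transcript abundances divided by transcript length and scaled to about the same total in each library, so levels of different genes can be compared. Assembled transcripts with no coordinates held from 20.3% to 34.9% of each library's TPM, and whether any of them holds reads from a locus named here is not known. TPM keep no read depth, which is therefore unknown. URA3, which the medium selects for, was at 43.4 ± 3.53 TPM in dChr and 42.4 ± 6.56 in the control (SD, n = 3). Both strains carried a-cell transcripts, at unequal levels. STE2, a receptor specific to a cells, stood at 169, 185 and 169 TPM in dChr and at 358, 409 and 360 TPM in the control (log2 fold change -1.10 ± 0.09 SE, limma adjusted p = 0.000935). The a-cell genes BAR1 (-1.16, adjusted p = 0.000510) and MFA1 (-1.07, adjusted p = 0.00340) were also called lower in dChr by limma. The part of this difference in the values of the chaperone genes was not tested. STE3, the counterpart of STE2 in alpha cells, was between 0.627 and 1.30 TPM, and MFALPHA1, which encodes the alpha-cell pheromone, was listed at 0 in 4 libraries and at 0.370 and 0.544 TPM in the others. In a bulk culture, fewer cells that use a gene and less RNA per cell cannot be told apart.

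The members are spread over 6 chromosomes of the R64 reference (the sacCer3 assembly). ASF1 (YJL115W) lies on the forward strand of chromosome X, at 196287 to 197126, and HIR3 (YJR140C) on the reverse strand of the same chromosome, at 690750 to 695696. RLF2 (YPR018W) is at 594476 to 596296 of chromosome XVI, CAC2 (YML102W) at 68294 to 69700 of chromosome XIII and MSI1 (YBR195C) at 610614 to 611882 of chromosome II. HIR1 (YBL008W) and HPC2 (YBR215W) are also on chromosome II, at 209653 to 212175 and 653356 to 655317, and HIR2 (YOR038C) is on chromosome XV, at 402761 to 405388. SPT16 (YGL207W) is at 98969 to 102076 of chromosome VII and POB3 (YML069W) at 135500 to 137158 of chromosome XIII. HPC2 has 2 coding exons and each of the other members has 1. No member overlaps another gene of the RefSeq annotation.

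The 300 bases before each start codon were searched on both strands for 3 short motifs, because the members are set beside genes of the G1 to S transition. ACGCGT, the MCB motif bound by the MBF factor of that transition, stood before ASF1 and RLF2, in 2 copies each, and before 3.48% of 6001 nuclear protein-coding genes. CGCGAAA, the SCB motif of the related factor SBF, stood before MSI1, HIR2, HIR3 and POB3, and before 3.95% of those genes. TTACCCG, the site of the general regulatory factor Reb1, stood before none of the 10 and before 7.9% of those genes. No match overlapped another. The matches are written out because they are sequence that some members share and that the choice of members did not use. Each is written 5′ to 3′ on the strand of its gene, with the match of that line in capitals, from the R64 genome. The stretches written for the 2 RLF2 copies overlap, so each also holds the other copy in small letters.
ASF1, first copy, chrX:196060-196087, forward strand: acttttcatttACGCGTtttttcctttt
ASF1, second copy, chrX:196096-196123, forward strand: tctcatcctaaACGCGTaaatctgttcc
RLF2, first copy, chrXVI:594233-594260, forward strand: catatatgctcACGCGTtcggacgcgtg
RLF2, second copy, chrXVI:594243-594270, forward strand: cacgcgttcggACGCGTgaaaggcttca
MSI1, chrII:611990-612018, reverse strand: ctttattgtgtCGCGAAAagtaaaaattt
HIR2, chrXV:405500-405528, reverse strand: acaaaaaaaagCGCGAAAaaaatatcagt
HIR3, chrX:695806-695834, reverse strand: ctatgtgccatCGCGAAAttatttattga
POB3, chrXIII:135337-135365, forward strand: acccggttcaaCGCGAAAcgaatcgttaa
The ASF1 copies begin 216 and 180 bases before the start codon and the RLF2 copies 232 and 222. The SCB matches begin between 125 and 152 bases before it. CAC2, HIR1, HPC2 and SPT16 held none of the 3 motifs in this window. A match is a description of these letters and not evidence of binding.

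The chaperone transcripts were of modest abundance and differed widely from each other. SPT16 had the highest level, with a mean of 26.9 TPM over the 6 libraries and a range of 23.2 to 30.7, which placed it at the 75.4th percentile of 5848 nuclear protein-coding genes. The next was POB3 at 7.82 TPM, at the 49.4th percentile, and its range of 6.16 to 8.77 did not reach that of SPT16. The other 8 members lay below POB3, so 9 of the 10 had means below the level of the median nuclear gene, 8.01 TPM. That level lay inside the range of POB3.

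HIR2 (6.84 TPM), CAC2 (6.14), HIR3 (5.57), ASF1 (4.05) and MSI1 (3.55) followed in this order of mean level, and the ranges of each neighbouring pair from POB3 down to MSI1 overlapped. HIR1 (1.71 TPM) and HPC2 (1.55) formed a lower pair whose ranges overlapped each other but not that of MSI1. RLF2 was last by far, with 0 to 0.0799 TPM. Neighbours whose ranges overlapped were not always in the same order: CAC2 was above HIR3 in 4 of the 6 libraries, ASF1 above MSI1 in 4, and HIR1 above HPC2 in 4, while HIR3 was above ASF1 in each of the 6.

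**Figure D1:**
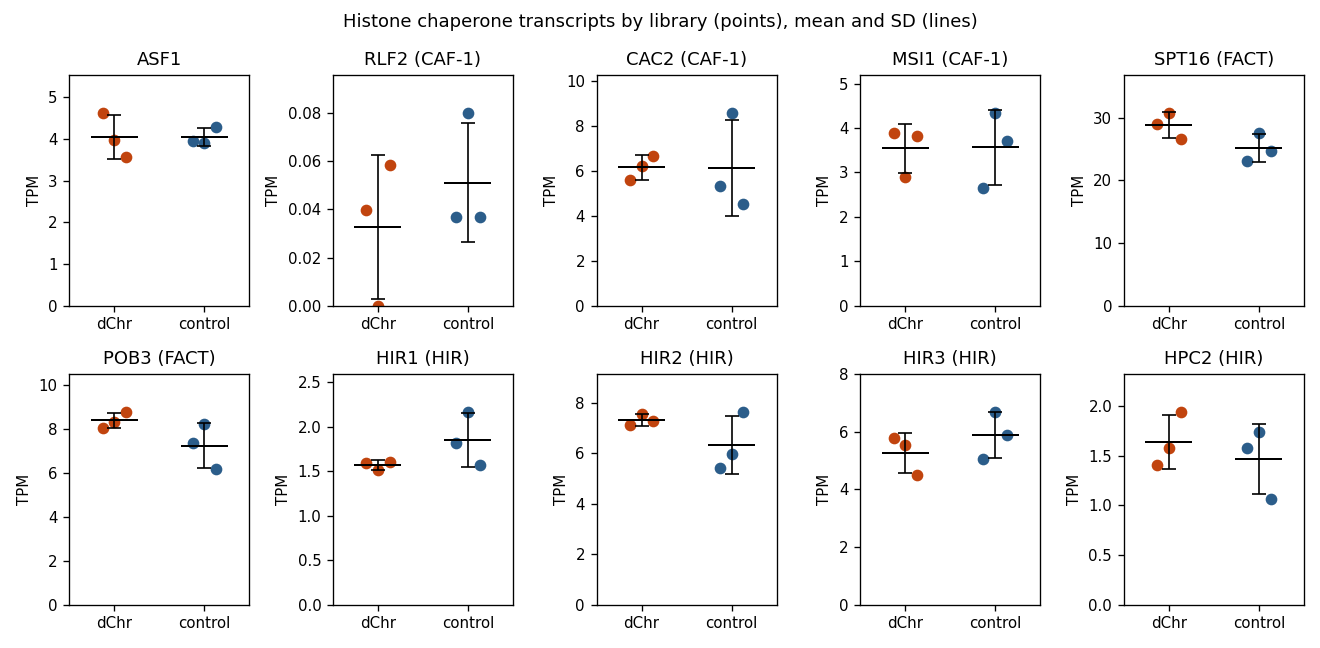
TPM of each of the 10 genes (y axis, linear from 0, a separate scale for each gene) in the 3 dChr and 3 control libraries (x axis), drawn from left to right in the order of library number. Points are libraries, long lines strain means and error bars SDs. SPT16 runs from 23.2 to 30.7 TPM while RLF2 stays at or under 0.0799, and the points of the strains overlap for each gene.

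The comparison of the strains asked whether the genes that load histones are transcribed differently in cells with the added chromosome. Of the 10 members, 9 had a mean of at least 1 TPM and were tested, and 0 of these passed the threshold of 0.05 in either direction (limma adjusted p from 0.291 to 0.996), 0 at an unadjusted p under 0.05. Over all 5938 tested transcripts, 13.4% passed (249 higher and 544 lower in dChr) and 27.8% had an unadjusted p under 0.05. The split of these calls depended on scaling: 505 were higher and 637 lower (19.2% in all) after median-ratio scaling. Quantile normalization gave 556 and 561 (18.8%), and the 5396 nuclear protein-coding genes rescaled to their own total gave 251 and 932 (21.9%).

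The libraries of the strains overlapped for each of the 9 tested members, whereas they did not overlap for 34.1% of all tested transcripts. The median log2 fold change of the 9 was 0.04, with a range from -0.15 to 0.19, beside a median of -0.04 over all tested transcripts. Fold changes are of TPM + 1, which understates the change of low genes such as HIR1 and HPC2. A p above the threshold does not show equal levels, so the 95% intervals are given: the lowest bound for any of the 9 was -0.54 (HIR1) and the highest 0.57 (HPC2), which is between 0.686-fold and 1.49-fold. Thus the intervals of the 9 left out a 2-fold difference in either direction on this scale, as did those of 78.6% of all tested transcripts.

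**Figure D2:**
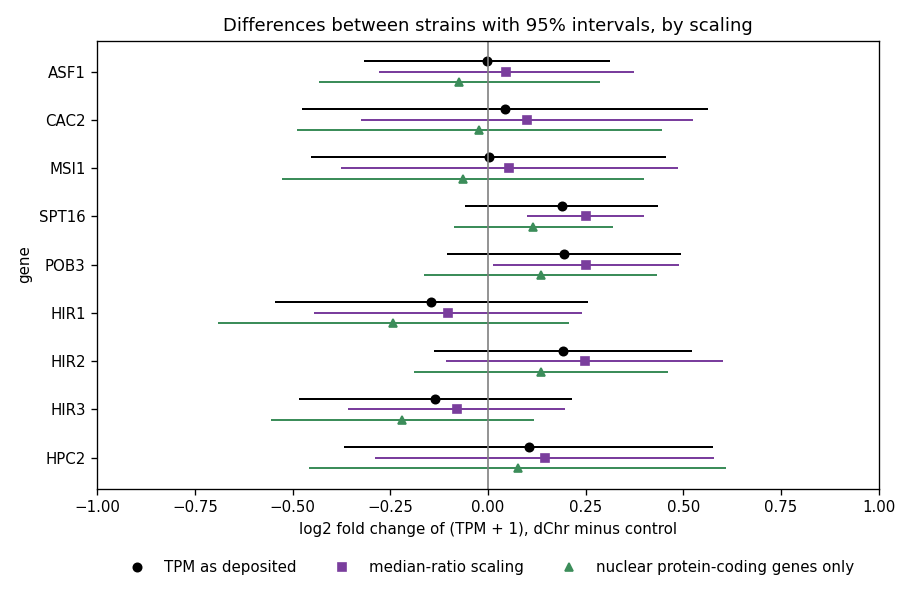
Log2 fold change of TPM + 1, dChr minus control (x axis), for the 9 tested genes (y axis). Symbols are limma estimates and lines their 95% intervals, in black for TPM as deposited, violet for median-ratio scaling and green for nuclear protein-coding genes rescaled to their own total. With the deposited TPM each interval includes 0, and with median-ratio scaling those of SPT16 and POB3 lie above 0.

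ASF1 encodes the chaperone that presents H3 and H4 to the enzymes and complexes that act on them. It stood at 4.61, 3.98 and 3.57 TPM in dChr libraries 1, 2 and 3 and at 3.95, 3.89 and 4.29 TPM in the controls. The 3 control values lay within the range of the dChr values. The log2 fold change was -0.0024 ± 0.13 (SE), with a 95% interval from -0.32 to 0.31 (limma adjusted p = 0.993).

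CAF-1 has 3 subunits, and the largest of them, RLF2 (also called CAC1), is the one that binds the sliding clamp PCNA. Its transcript was listed at 0.0396, 0 and 0.0583 TPM in dChr libraries 1, 2 and 3 and at 0.0369, 0.0799 and 0.0367 TPM in the controls. It was thus close to 0 in both strains and was not tested. Of 5848 nuclear protein-coding genes, 101 (1.73%) were under 0.1 TPM in each of the 6 libraries, as RLF2 was. The genes on either side of it were listed higher. MCM4, a helicase subunit whose gene lies at 596750 to 599551, was at 9.97 to 13.2 TPM. DSS4, which lies at 593486 to 593917, was at 0.659 to 2.30 TPM. A value this low, and the listed 0, can be a failed estimate as well as a low level, and these cannot be told apart here.

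CAC2, a WD-repeat subunit, stood at 5.57, 6.21 and 6.66 TPM in dChr and at 5.32, 8.55 and 4.50 TPM in the control. The control libraries bracketed the dChr libraries, with control library 2 the highest and control library 3 the lowest of the 6. Its log2 fold change was 0.04 ± 0.22 (SE), with a 95% interval from -0.47 to 0.56 (limma adjusted p = 0.924). MSI1, the other WD-repeat subunit, related to human RBBP4, stood at 3.90, 2.90 and 3.82 TPM in dChr and at 2.65, 4.33 and 3.71 TPM in the control. Here too the control libraries spanned the dChr libraries, and the log2 fold change was 0.0019 ± 0.19 (SE), from -0.45 to 0.45 (limma adjusted p = 0.996). The residual SD of CAC2 was at the 80.1st percentile of all tested transcripts, so its interval is among the wider ones of the members.

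The HIR complex holds 4 subunits. HIR1 and HIR2 are WD-repeat proteins related to human HIRA, HIR3 is related to human CABIN1 and HPC2 is related to the human ubinucleins. HIR1 stood at 1.59, 1.51 and 1.61 TPM in dChr and at 1.82, 2.17 and 1.57 TPM in the control. The dChr values lay close together, and only control library 3 came down to them. The log2 fold change was -0.15 ± 0.17 (SE), with a 95% interval from -0.54 to 0.25 (limma adjusted p = 0.624).

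HIR2 stood at 7.12, 7.58 and 7.30 TPM in dChr and at 5.43, 5.98 and 7.64 TPM in the control. Control libraries 1 and 2 were below the dChr libraries and control library 3 was the highest of the 6. The log2 fold change was 0.19 ± 0.14 (SE), from -0.13 to 0.52 (limma adjusted p = 0.416). HIR3, the longest member at 4947 coding bases, stood at 5.77, 5.53 and 4.48 TPM in dChr and at 5.06, 6.67 and 5.89 TPM in the control. Its values interleaved between strains, with a log2 fold change of -0.13 ± 0.14 (SE), from -0.48 to 0.21 (limma adjusted p = 0.598).

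HPC2 stood at 1.40, 1.57 and 1.94 TPM in dChr and at 1.58, 1.74 and 1.07 TPM in the control. Control library 3 was the lowest and dChr library 3 the highest of the 6, and the other values lay between them. The log2 fold change was 0.10 ± 0.20 (SE), from -0.37 to 0.57 (limma adjusted p = 0.782). Within the complex, HIR1 and HIR3 had negative estimates and HIR2 and HPC2 positive ones, and each interval included 0.

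FACT is a heterodimer, and its genes had the smallest p-values of the 9 tested members. Their estimates were of the same size as that of HIR2. SPT16, the large subunit, stood at 29.0, 30.7 and 26.6 TPM in dChr libraries 1, 2 and 3 and at 23.2, 27.5 and 24.7 TPM in the controls. The dChr libraries were the higher ones except that control library 2 exceeded dChr library 3. The log2 fold change was 0.19 ± 0.10 (SE), with a 95% interval from -0.06 to 0.43 (limma adjusted p = 0.291).

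POB3, the small subunit, stood at 8.06, 8.34 and 8.77 TPM in dChr and at 7.35, 8.23 and 6.16 TPM in the control. Control library 2 again reached into the dChr range. Its log2 fold change was 0.19 ± 0.12 (SE), from -0.10 to 0.49 (limma adjusted p = 0.369).

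Control library 2 was the highest of the controls for 7 of the 9 tested members, the exceptions being ASF1 and HIR2. The same library had the largest median-ratio size factor, 1.14 against 0.953 to 1.04 in the other 5, that is, the typical transcript was listed higher there. After division by these factors SPT16 stood at 30.2, 29.4 and 27.9 in dChr and at 23.6, 24.2 and 25.2 in the control, and POB3 at 8.38, 7.99 and 9.20 against 7.49, 7.25 and 6.29. Neither gene overlapped between the strains on this scale. SPT16 then passed the threshold, with a log2 fold change of 0.25 ± 0.06 (SE, limma adjusted p = 0.0363), and POB3 did not, at 0.25 ± 0.10 (SE, adjusted p = 0.127).

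Quantile normalization gave 0.28 ± 0.07 (SE) for SPT16 (limma adjusted p = 0.0373) and 0.30 ± 0.09 for POB3 (adjusted p = 0.0750). Rescaling to nuclear protein-coding genes gave 0.12 ± 0.09 for SPT16 (limma adjusted p = 0.396) and 0.13 ± 0.13 for POB3 (adjusted p = 0.511). The direction of SPT16 and POB3 was thus the same under each scaling, and whether SPT16 passed depended on it. HIR2 had estimates of similar size, 0.25 ± 0.14 (SE) after median-ratio scaling and 0.30 ± 0.15 after quantile normalization. Rescaled to nuclear protein-coding genes HIR2 was at 0.14 ± 0.14, and it was called under none of these scalings. Of all tested transcripts 8.5% were called higher after median-ratio scaling and 9.36% after quantile normalization, and the 1 of 9 members called is close to these shares. The 2 of 9 members that were higher without overlap after median-ratio scaling stand beside 20.4% of all tested transcripts. HIR1, rescaled to nuclear protein-coding genes, stood at 3.66, 3.20 and 3.58 in dChr and at 4.45, 4.83 and 3.67 in the control, in TPM of that total. It was thus lower without overlap, by a narrow margin, and was not called (log2 fold change -0.24 ± 0.19 SE, limma adjusted p = 0.429). It was 1 of 9 members lower without overlap on that scale, beside 29.3% of the 5396 nuclear genes.

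Subunits of a complex work in fixed proportion, so their transcripts were also set against each other inside each library, where scaling between libraries has no part. SPT16 exceeded POB3 by 3.60, 3.68 and 3.03 times in dChr and by 3.15, 3.34 and 4.01 times in the control. This ratio was above 3 in each of the 6 libraries and its strain means of 3.44 ± 0.356 and 3.50 ± 0.449 (SD, n = 3) differed by less than the spread (exact permutation test, two-sided, p = 0.9). CAC2 exceeded MSI1 in each library, by 1.77 ± 0.354 times in dChr and 1.73 ± 0.449 times in the control (SD, n = 3, exact permutation p = 0.8). RLF2 was below CAC2 by a factor of at least 107 in each library where it was above 0.

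In the HIR complex, HIR2 exceeded HIR1 by 2.76 to 5.02 times and HIR3 exceeded HIR1 by 2.78 to 3.75 times over the 6 libraries. The ratio of HIR1 to HIR2 was 0.224, 0.199 and 0.220 in dChr and 0.335, 0.363 and 0.206 in the control (exact permutation p = 0.3). The ratio of HIR1 to HIR3 was 0.303 ± 0.0486 in dChr and 0.317 ± 0.0468 in the control (SD, n = 3, exact permutation p = 0.9). The ratio of HIR1 to HPC2 was 1.13, 0.961 and 0.829 in dChr and 1.15, 1.24 and 1.48 in the control, so that the dChr values lay below the control values without overlap. Its exact permutation p was 0.1, the smallest that 3 against 3 libraries can give, and 0.5 after Benjamini-Hochberg adjustment over the 5 ratios tested. HIR1 and HPC2 had the lowest levels of the tested members.

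**Figure D3:**
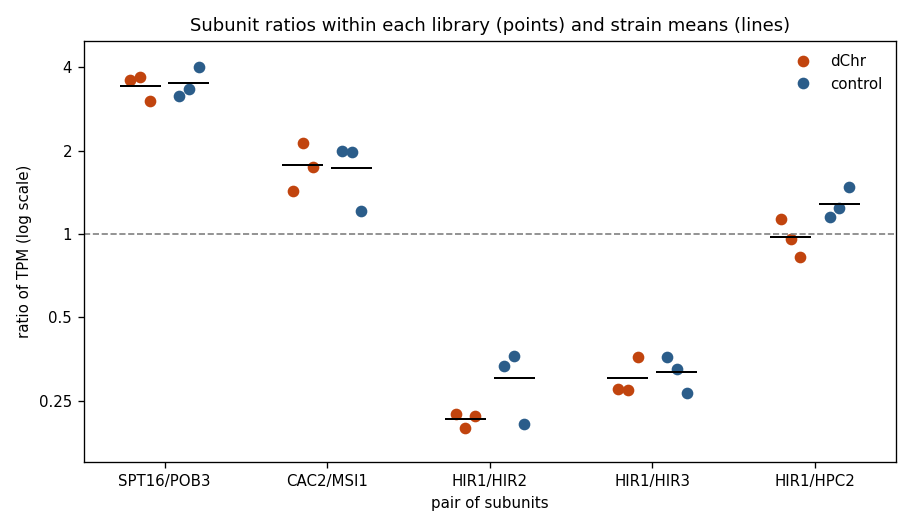
Ratio of the TPM of 2 subunits (y axis, log scale) for 5 pairs (x axis) in the dChr and control libraries. Points are libraries in the order of their number and black lines strain means, and the dashed line marks a ratio of 1. SPT16 over POB3 stays between 3.03 and 4.01, and HIR1 over HPC2 is the one pair whose strains do not overlap.

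Summed over subunits, FACT transcripts stood at 37.1, 39.0 and 35.3 TPM in dChr and at 30.5, 35.8 and 30.9 TPM in the control, 1.15-fold higher by geometric mean. The strains overlapped through control library 2, and the exact permutation p was 0.2 (0.8 adjusted over the 4 sums tested). After median-ratio scaling the sums were 38.5, 37.4 and 37.1 against 31.1, 31.5 and 31.5, without overlap. The exact permutation p was then 0.1, the smallest that the test allows, and it was not adjusted over the 4 sums. CAF-1 transcripts summed to 9.72 ± 0.736 TPM in dChr and 9.74 ± 2.79 in the control (SD, n = 3), nearly all of it from CAC2 and MSI1. HIR transcripts summed to 15.8 ± 0.439 TPM against 15.5 ± 1.44. The exact permutation p was 1 for CAF-1 and 0.9 for HIR.

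Other genes of histone handling were read from the same fit. Of 13 further histone chaperones 11 were found, and 4 of these were below 1 TPM on average. Of the 7 tested 0 passed the threshold (3 at an unadjusted p under 0.05, beside 27.8% of all tested transcripts). The 2 with the smallest p were FPR3, a nucleolar prolyl isomerase that binds histones, and NAP1, a chaperone of H2A and H2B. FPR3 stood at 8.78, 9.66 and 9.40 TPM in dChr and at 6.42, 7.78 and 7.02 TPM in the control, without overlap (log2 fold change 0.35 ± 0.11 SE, limma adjusted p = 0.0874). NAP1 stood at 7.19, 6.07 and 5.97 TPM against 5.12, 4.52 and 4.20, also without overlap (0.40 ± 0.13 SE, limma adjusted p = 0.0929). FPR3 passed after median-ratio scaling (limma adjusted p = 0.0151) and after quantile normalization (0.0117), and NAP1 after the latter (0.0470). These calls are 1 and 2 of the 7, beside 19.2% and 18.8% of all tested transcripts under the same 2 settings. With the deposited TPM the strains did not overlap for 3 of the 7, beside 34.1% of all tested transcripts. The median log2 fold change of the 7 was 0.21.

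Of 10 partners in histone acetylation, deposition and histone gene control, 0 passed, with a median of -0.11. An unadjusted p under 0.05 was found for 2 of the 10, beside 27.8% of all tested transcripts. HAT1, the acetyltransferase of newly made histone H4, stood at 14.9, 16.3 and 15.7 TPM in dChr and at 17.4, 21.4 and 22.6 TPM in the control (log2 fold change -0.36 ± 0.12 SE, limma adjusted p = 0.104). YTA7, a chromatin ATPase that acts at histone genes, stood at 13.2, 14.4 and 12.5 TPM against 9.91, 12.1 and 10.2 (0.29 ± 0.11 SE, limma adjusted p = 0.148). The strains did not overlap for either gene, which made 2 of the 10, beside 34.1% of all tested transcripts. Their estimates had opposite signs. Rescaled to nuclear protein-coding genes, HAT1 passed (limma adjusted p = 0.0161), and YTA7 passed after median-ratio scaling (0.0139) and after quantile normalization (0.00939). These settings called 21.9%, 19.2% and 18.8% of all that they tested. POL30, which encodes the PCNA that CAF-1 binds, had a log2 fold change of -0.09 ± 0.16 (SE).

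Of 11 histone genes, the cargo of the chaperones, 10 were tested and 0 passed, 0 at an unadjusted p under 0.05, with a median of 0.12. The smallest p belonged to HHO1, the linker histone, at 59.8, 63.2 and 66.8 TPM in dChr and 45.9, 57.1 and 56.0 TPM in the control (0.26 ± 0.11 SE, limma adjusted p = 0.190). HTZ1, the H2A.Z variant, stood at 34.7, 45.2 and 35.8 TPM against 31.5, 34.3 and 30.2 (0.26 ± 0.12 SE, limma adjusted p = 0.238) and passed with median-ratio scaling (0.0456). The strains did not overlap for either gene, which made 2 of the 10, beside 34.1% of all tested transcripts. HTZ1 was the 1 of 10 called after median-ratio scaling, which called 19.2% of all tested transcripts.

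Since ASF1, RLF2 and several partners are known to be transcribed most around the start of S phase, 10 genes of the G1 to S transition were set beside them. Of the 9 tested 0 passed, with a median of 0.03. An unadjusted p under 0.05 was found for 1 of the 9, beside 27.8% of all tested transcripts. RNR1 ran from 27.3 to 90.3 TPM over the libraries and had a wide 95% interval, from -1.37 to 1.24. CDC45, a replication initiation factor, stood at 1.71, 1.56 and 1.83 TPM in dChr and at 2.48, 2.73 and 2.90 TPM in the control (log2 fold change -0.45 ± 0.15 SE, limma adjusted p = 0.0982). It was the 1 of the 9 without overlap, beside 34.1% of all tested transcripts. CDC45 passed when rescaled to nuclear protein-coding genes (limma adjusted p = 0.0370), a setting that called 21.9% of the genes it tested. CLN1, a G1 cyclin, stood at 7.73 ± 0.338 TPM against 10.6 ± 2.37 (SD, n = 3), with overlap (log2 fold change -0.39 ± 0.17 SE, limma adjusted p = 0.189). The part of cell cycle stage in the values of the members was not tested.

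**Figure D4:**
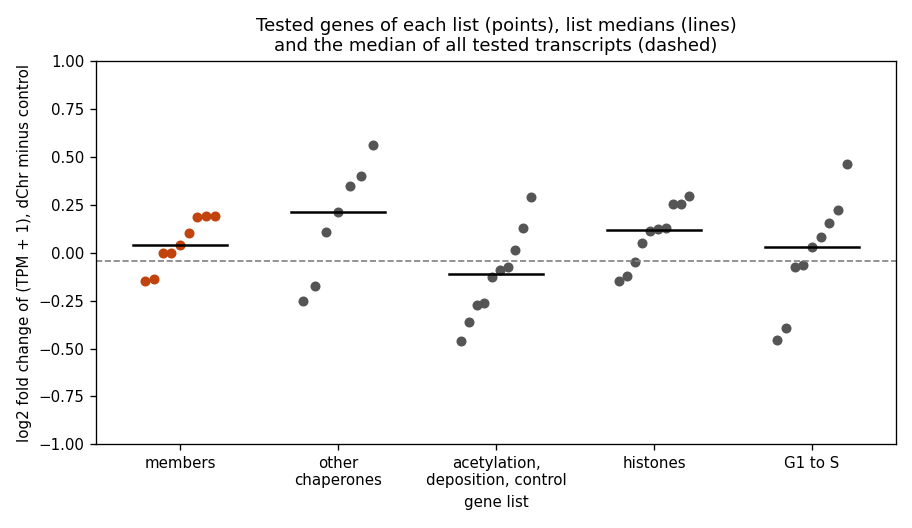
Log2 fold change of TPM + 1, dChr minus control (y axis), of the tested genes in each list (x axis): the 9 histone chaperones in orange and 4 related lists in grey. Points are genes, black lines list medians, and the dashed line is the median of all tested transcripts, -0.04. The 9 chaperones lie between -0.15 and 0.19. Intervals are not drawn, and those of HHT1 and RNR1 are wide.

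The mean profile of the 9 tested members over the 6 libraries, on the centred log2 scale, was 0.03, 0.02 and 0.02 in dChr libraries 1, 2 and 3 and -0.12, 0.13 and -0.09 in the control libraries. This mean thus varied among the controls and hardly among the dChr libraries, where single members moved in different directions. The transcripts whose profiles were most like it over the 6 libraries were LAT1 (Pearson r = 0.994), VPS55 (0.989) and CDC12 (0.987). They too were highest in control library 2 and lowest in control library 1, and the 6 points share the library differences described above.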

How the data were processed

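The authors deposited TPM for 7554 transcripts in 6 libraries. The submitters' processing notes name HISAT2 2.0.5, StringTie 2.0, cutadapt 2.6, R 3.6.0 and DESeq2, and the sacCer3 build. What each tool did, the strand setting and the filters are not stated. Values were analysed as log2(TPM + 1) for the 5938 transcripts whose mean was 1 TPM or more. Strains were compared in limma 3.58.1 under R 4.3.3 (moderated by eBayes with a trend on mean level), two-sided, with p-values adjusted by Benjamini-Hochberg over all tested transcripts at a threshold of 0.05. The code of the fit was tested on simulated data with independent normal noise at the residual SD of each transcript. These simulated data held no differences of scale between libraries, so the test does not bear on the choice of scaling. Sums and ratios of subunits were compared by two-sided exact permutation tests over libraries, whose smallest p is 0.1. Ratios with RLF2 were not tested because it is listed at 0 in a library. Positions, names and sequences are from RefSeq R64, in which the 10 members were all found. The members were named whatever their values. Of each further list on histones, chaperones, partners and the G1 to S transition, the genes past the threshold and the 2 with the smallest p were named; the markers of strain were used to describe the strains, and those past the threshold are named. POL30, the partner of CAF-1, and HHT1 and RNR1, for their wide intervals, were added after their values were seen. The members and lists were chosen with earlier results of these data known. Of the further chaperones, RTT106 and NHP6A are not analysed here. Figures used matplotlib 3.10.9 in Python 3.11.15.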

Additional observations from a re-analysis of the deposited data

How the results depend on the processing

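The call for 0 of 9 tested members held under 8 of 10 other settings and each left-out library, but 1 member, SPT16, was called after median-ratio scaling and 1, again SPT16, after quantile normalization; the cause was not tested. A minimum of 10 TPM left SPT16 as the one member tested. Over all transcripts, median-ratio scaling gave 505 higher and quantile normalization 556, and nuclear protein-coding genes alone 932 lower. The median log2 fold change of all tested transcripts was -0.04 with the deposited TPM. It was 0.0095 after median-ratio scaling, 0.045 after quantile normalization and -0.12 for nuclear protein-coding genes. Leaving out a library gave 101 to 246 higher and 253 to 402 lower, with fewer samples in each fit: 101 and 253 without dChr library 1, 124 higher without dChr library 2, 153 and 292 without dChr library 3, 353 lower without control library 2 and 142 higher without control library 3. Estimates near 0 changed sign without being called. ASF1 turned to 0.047 after median-ratio scaling and to 0.12 after quantile normalization, and ran from -0.081 to 0.068 over left-out libraries. CAC2 turned to -0.022 for nuclear protein-coding genes (-0.12 to 0.27 over left-out libraries), and MSI1 to -0.063 there and -0.0015 with a pseudocount of 5 (-0.15 to 0.12). HPC2 ran from -0.017 to 0.19. Among sums, on the log2 scale, ASF1 turned to 0.059 after median-ratio scaling (-0.10 to 0.084 over left-out libraries), and for nuclear protein-coding genes CAF-1 turned to -0.047 (-0.092 to 0.26) and HIR to -0.049 (-0.050 to 0.076). Among log2 ratios over left-out libraries, SPT16 to POB3 ran from -0.096 to 0.077, CAC2 to MSI1 from -0.19 to 0.19 and HIR1 to HIR3 from -0.20 to 0.029. SPT16, POB3, HIR1, HIR2 and HIR3 kept their sign under each alternative run and were not called with a library left out. Over left-out libraries SPT16 ran from 0.13 to 0.25, POB3 from 0.096 (without control library 3) to 0.28, HIR1 from -0.22 to -0.067 (without control library 2), HIR2 from 0.10 (without control library 1) to 0.32 (without control library 3) and HIR3 from -0.22 (without control library 1) to -0.042 (without dChr library 3). Depth is unknown, so no counting limit can be given for RLF2.

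With a replicate block 268 transcripts were higher and 566 lower, and 0 members were called. Libraries that share a number deviated from the means of their strains with correlations of 0.09, -0.08 and 0.12, which shows no clear pairing.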
